A study of Danio rerio with 32 samples.

Results

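The genes described here encode glutamate receptors and were read in cells sorted for a transgene active in zebrafish V2a interneurons. They were chosen by name: every row of the expression table whose Ensembl ID has a symbol of the GRIA, GRIK, GRID, GRIN or GRM series, followed for the last 3 by a digit, at 1 FPKM or more in at least 5 of the 32 libraries. FPKM is the number of fragments per kilobase of gene, scaled to the size of the library. In all, 43 IDs carried such a name and 40 passed the level filter, out of 42370 genes in the table and 22552 past the same filter. All 8 AMPA receptor IDs, all 3 delta receptor IDs and all 13 metabotropic receptor IDs passed, together with 5 of 6 kainate receptor IDs and 11 of 13 NMDA receptor IDs. Zebrafish often have 2 genes where mammals have 1, and the gene table gives many such pairs the same human-style symbol. Members that share a symbol are therefore written with the last digits of their Ensembl ID, so that GRIA1-32714 is ENSDARG00000032714 and GRIA1-21352 is ENSDARG00000021352.

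Glutamate is the main excitatory transmitter of the vertebrate spinal cord. AMPA receptors, built from GRIA subunits, carry fast excitation, and the GRIA2 subunit is known from mammals to limit their calcium entry. NMDA receptors need GRIN1 together with GRIN2 or GRIN3 subunits and give slow, voltage-dependent currents that help sustain swimming rhythms in fish and lampreys. Kainate receptors (GRIK) modulate transmission on either side of the synapse, delta receptors (GRID) link the postsynaptic membrane to presynaptic neurexins through cerebellins, and metabotropic receptors (GRM) signal through G proteins. V2a interneurons are themselves glutamatergic and excite motor neurons during swimming. RNA of sorted cells does not show on which cells a receptor sits.

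RNA was sequenced from GFP-positive cells sorted from spinal cord segments 1 to 7 of transgenic zebrafish, rostral to the lesion in injured fish. All groups carry the transgene, which places GFP under a promoter active in V2a interneurons. The tracer Rhodamine Dextran travels from an axon to its soma and so marks cells whose axon reaches the place of application. The sort separated GFP-positive cells with the tracer (D, traced) from those without it (G, untraced). Uninjured fish gave 6 Gcon and 5 Dcon libraries. Fish at 3 weeks after spinal cord injury gave 5 G3W and 5 D3W libraries, and fish at 8 weeks 5 G8W and 6 D8W libraries. After injury the labels describe D cells as having a regrown axon and G cells as lacking one. Tissue came from 20 uninjured fish and from 20 fish at each time after injury. The labels do not say which fish or how many went into a library, so p-values here measure the spread between these libraries only. GFP marks any cell in which the transgene is active, and untraced cells are defined only by the absence of the tracer.

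Library totals were inferred from the step size of the FPKM values. The deepest held 27.7 M counts and the shallowest 9.42 M, so that 3 counts corresponded to 0.108 to 0.319 FPKM for a gene of 1 kilobase. Genes at 1 FPKM or more numbered 7755 to 18414 per library, and the libraries with fewest were D3W replicates 3 and 5. Of 10 V2a and glutamatergic marker IDs, 6 to 8 had a mean of 1 FPKM or more in each group. Their summed FPKM ranged from 272 to 398 in Gcon, from 268 to 622 in G3W and from 154 to 523 in G8W, against 88.6 to 594 in Dcon, 63.1 to 218 in D3W and 91.0 to 316 in D8W. Over the 3 states 2 of 7 tested markers passed as lower in D and 0 as higher in limma's test, with a median log2 fold change of -1.17. Of all genes tested 3.57% passed as lower and 0.998% as higher. Of the glial and immune lists, 0 of 16 tested astroglial and ependymal genes and 0 of 18 tested microglial genes passed between D and G over the 3 states, where 4.57% of all genes did. The summed FPKM of the oligodendrocyte list ran from 2110 to 22600 per library and that of the microglial list from 84.4 to 12700. For a pan-neuronal list it ran from 3150 to 11800. The genes of that list did not all differ in the same direction between D and G. ELAVL3 averaged 507, 437 and 357 FPKM in Gcon, G3W and G8W and 280, 175 and 138 FPKM in Dcon, D3W and D8W. SNAP25 (ENSDARG00000020609) averaged 2120, 1600 and 2110 FPKM against 3800, 2130 and 1920 FPKM in the same order. Of 13 tested oligodendrocyte genes, mbpb, a myelin basic protein gene, passed as higher in D (log2 fold change 1.41, SE 0.373, limma adjusted p = 0.0198). A motor neuron list summed to 1120 FPKM in Dcon replicate 4 and to between 2.62 and 154 FPKM in the other Dcon libraries. The part of this difference in the receptor values of that library was not tested. In such bulk libraries fewer cells of a type and less RNA per cell cannot be told apart.

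The glutamate receptor genes were dominated by the NMDA and AMPA families in every group. Their 43 IDs together made up 0.0946% ± 0.0139 (SD, n = 6) of all FPKM in Gcon and 0.0502% ± 0.0209 (SD, n = 5) in D3W, the groups with the highest and the lowest mean. NMDA receptor genes contributed 35.3% ± 4.15 (SD, n = 6) of the receptor FPKM in Gcon and 55.0% ± 9.43 (SD, n = 6) in D8W, and AMPA receptor genes 38.3% ± 2.30 and 29.1% ± 7.32 in the same groups. GRIN1-27828, an obligatory NMDA subunit gene, was the most abundant member with a mean of 127 FPKM over the 32 libraries. GRIN1-25728 followed at 46.3 FPKM, then GRIA2-52765 at 36.2, GRIA2-70173 at 32.3, GRIA4 at 27.9, gria4a at 25.8, GRIA3-32737 at 23.2 and GRID1-44161 at 20.0 FPKM. From GRIA2-52765 to GRID1-44161, neighbours in this order differed by less than the SD of either within Gcon. The least abundant members that passed the filter were metabotropic: GRM6-25671 averaged 0.331 FPKM and reached 1 FPKM in 5 libraries. Untraced libraries held more members at 1 FPKM or more, with means of 33.2 in Gcon, 32.2 in G3W and 30.6 in G8W against 25.2 in Dcon, 21.6 in D3W and 25.3 in D8W. The number of all genes at 1 FPKM or more moved the same way, with means of 14670, 17233 and 15730 against 12624, 12228 and 13838, and its part in the difference was not tested.

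**Figure D1:**
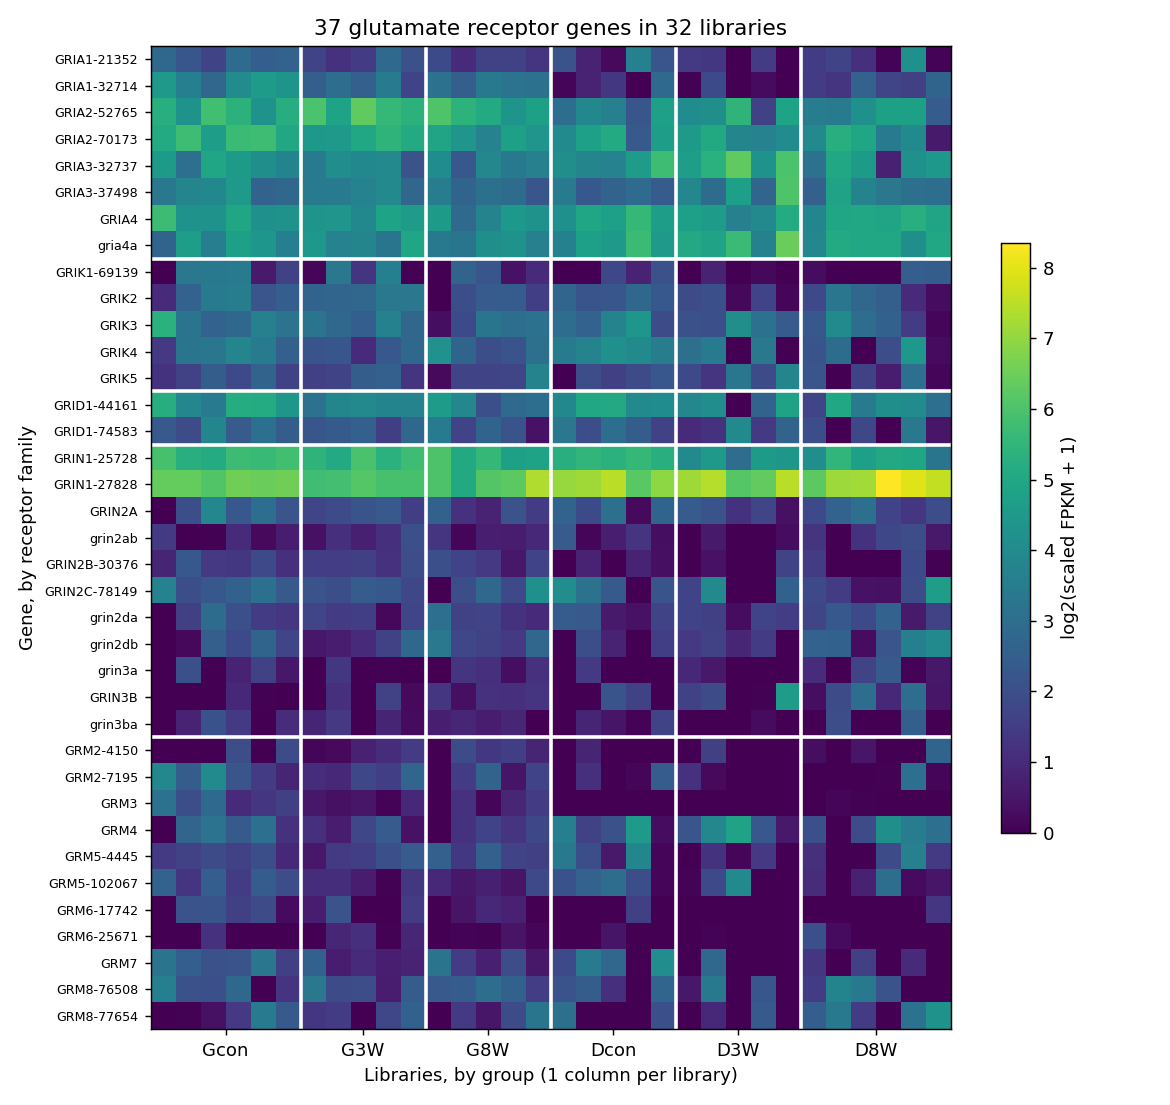
Each cell shows log2(scaled FPKM + 1) of 1 of 37 glutamate receptor genes (rows, by receptor family, divided by white lines) in 1 of 32 libraries (columns, by group). The GRIN1, GRIA2, GRIA3 and GRIA4 rows are brighter than most other rows in each group. Both GRIA1 rows are dark in part of the D libraries on the right, and the GRM3 row is dark in the D groups.

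The 3 IDs that did not pass the level filter were at 0 in most libraries. GRIK1-40627 (ENSDARG00000040627) reached 0.454 FPKM at most and was listed at 0 in 28 of 32 libraries. GRIN2B-79348 (ENSDARG00000079348) and GRIN2C-77560 (ENSDARG00000077560) reached 1 FPKM in 3 libraries each. Just inside the filter, GRM6-25671 reached it in 5 libraries.

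In the AMPA family, GRIA1-32714 passed as lower in traced cells in uninjured fish and at 3 weeks, and the GRIA2, GRIA3 and GRIA4 genes passed in no single state. GRIA1-32714 (ENSDARG00000032714), one of the genes for the GRIA1 subunit, which mammalian synapses add during potentiation, stood at 7.30, 26.3 and 35.6 FPKM (lowest, median, highest) in Gcon. Its values were 0.0917, 0.922, 1.83, 0 and 7.01 FPKM in Dcon replicates 1 to 5. In FPKM as deposited every Dcon library thus lay below every Gcon library. After scaling between libraries Dcon replicate 5, at 2.84 on the log2 scale, lay above Gcon replicate 3, at 2.74. In limma's test across all 22552 genes the log2 fold change of Dcon against Gcon was -2.94 (SE 0.542, adjusted p = 0.00883).

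The same gene stood at 6.93, 10.2, 7.71, 14 and 3.06 FPKM in G3W and at 0.052, 3.17, 0, 0.148 and 0 FPKM in D3W. The 3-week groups overlapped only through D3W replicate 2, which lay above G3W replicate 5, and the log2 fold change was -2.21 (SE 0.566, limma adjusted p = 0.040). That call held without D3W replicate 2 (adjusted p = 0.0165) or G3W replicate 5 (0.0382) and was lost without any of the other 8 libraries, with adjusted p up to 0.12. It was also lost in 5 of 9 alternative settings, with an adjusted p of 0.259 without D3W replicates 3 and 5 together, both at 0, and up to 0.388 with the number of detected genes per library as a covariate. At 8 weeks it stood at 9.67, 6.71, 13.5, 9.10 and 8.41 FPKM in G8W against 1.38, 2.08 and 4.71 FPKM (lowest, median, highest) in D8W. These groups did not overlap in FPKM as deposited. After scaling, D8W replicates 3 and 6 (2.63 and 2.69 on the log2 scale) lay above G8W replicate 2 (2.54). The log2 fold change was -1.17 (SE 0.542, limma adjusted p = 0.687). Its counterpart GRIA1-21352 (ENSDARG00000021352) averaged 7.03 ± 2.53 FPKM (SD, n = 6) in Gcon and 4.54 ± 5.06 FPKM (SD, n = 5) in Dcon and passed in no comparison.

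GRIA2-52765 (ENSDARG00000052765), which encodes the calcium-limiting subunit, had a lower median in traced cells in each state. It stood at 27.3, 53.4 and 70.9 FPKM (lowest, median, highest) in Gcon and at 9.06, 17.3, 13.6, 4.14 and 28.4 FPKM in Dcon. At 3 weeks it stood at 90.9, 40.8, 123, 64.2 and 55.1 FPKM in G3W and at 19.5, 19.8, 32.3, 1.79 and 20.9 FPKM in D3W. In FPKM as deposited every D3W library lay below every G3W library. After scaling between libraries D3W replicates 3 and 5 (5.44 and 4.85 on the log2 scale) lay above G3W replicate 2 (4.83). At 8 weeks it stood at 81.2, 56.8, 48.8, 21.2 and 28.6 FPKM in G8W and at 3.22, 13 and 25.2 FPKM (lowest, median, highest) in D8W. There 5 of 6 traced libraries lay below all untraced ones in FPKM as deposited. After scaling, D8W replicates 4 and 5 (4.74 and 4.76) lay above G8W replicate 4 (4.32). Within single states its log2 fold changes of -1.53 (SE 0.564), -1.59 (SE 0.589) and -1.28 (SE 0.564) did not pass (limma adjusted p = 0.283, 0.209 and 0.656). GRIA2-70173 (ENSDARG00000070173), the other GRIA2 gene, had log2 fold changes of -1.17, -0.67 and -0.70 in the 3 states and did not pass either.

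The fold changes of the GRIA3 and GRIA4 genes were mostly above 0 and none passed. GRIA3-32737 (ENSDARG00000032737) averaged 40.1 ± 17.1 FPKM in D3W and 16.9 ± 7.67 FPKM in G3W (SD, n = 5 each), with a log2 fold change of 1.82 (SE 0.639, limma adjusted p = 0.176), and 14.8 ± 10.6 FPKM (SD, n = 6) in D8W. The gene gria4a (ENSDARG00000037496) averaged 30.6, 37.2 and 23.4 FPKM in the traced groups and 24.2, 24.2 and 16.1 FPKM in the untraced groups, in the order uninjured, 3 weeks and 8 weeks. GRIA4 (ENSDARG00000059368) averaged 33.6, 21.3 and 24.5 FPKM against 37.2, 30.0 and 19.7 FPKM in the same order. After scaling between libraries its means were 28.6, 21.9 and 27.9 against 25.4, 20.8 and 16.2, and its 3 log2 fold changes ran from 0.00 to 0.81, so that the order of the means in the first 2 states depended on the scaling. GRIA3-37498 (ENSDARG00000037498) averaged 7.33, 19.5 and 10.5 FPKM in the traced groups and 16.9, 15.1 and 8.58 FPKM in the untraced ones.

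As a share of AMPA receptor FPKM, which does not depend on the scaling between libraries, the GRIA2 genes had lower and the GRIA4 genes higher means in traced cells. The GRIA2 genes supplied 45.2% ± 4.38, 53.5% ± 7.91 and 50.6% ± 11.2 of AMPA FPKM in Gcon, G3W and G8W, and 27.6% ± 13.5, 24.5% ± 6.91 and 27.3% ± 11.4 in Dcon, D3W and D8W (SD, n = 5 or 6). The GRIA4 genes supplied 24.6%, 25.8% and 25.8% in the untraced groups and 44.2%, 37.0% and 45.2% in the traced groups. Dcon replicate 4 had both the lowest GRIA2 share of its group, 5.24%, and the highest GRIA4 share, 66.3%. The other Dcon libraries ran from 27.0% to 40.5% for GRIA2 and from 28.2% to 48.5% for GRIA4. All these shares are parts of the same total, so a lower GRIA2 share and a higher GRIA4 share are not separate results. The GRIA3 share was highest in D3W at 37.1% ± 8.08, against 14.8% ± 5.81 in G3W, and every D3W library was above every G3W library. For GRIA2, the traced and untraced libraries did not overlap at 3 weeks (14.7% to 33.0% against 42.9% to 64.9%) or at 8 weeks (5.05% to 37.0% against 40.5% to 66.8%). In uninjured fish they met where the highest Dcon library, at 40.5%, lay above the lowest Gcon library, at 37.6%. GRIA1 genes supplied 12.5% ± 4.98 in Gcon and 1.36% to 7.93% in Dcon.

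**Figure D2:**
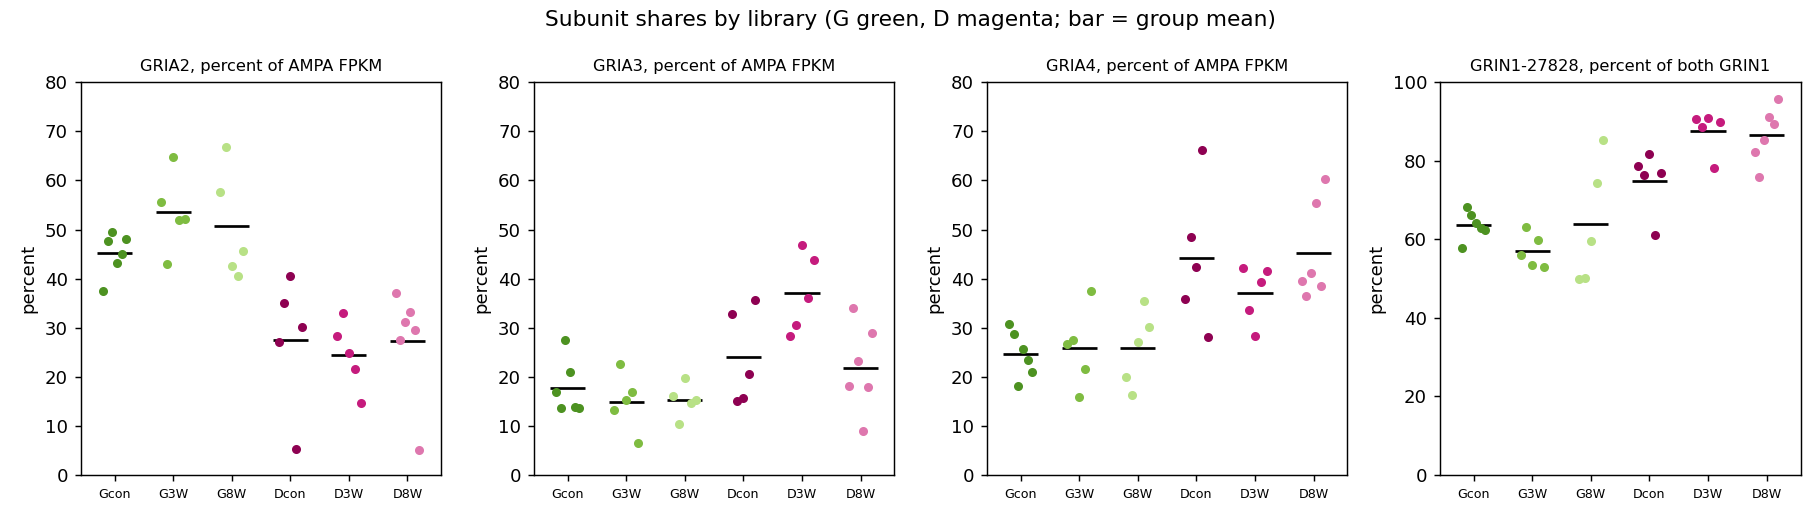
Points are libraries and bars group means, for the share of AMPA receptor FPKM from the GRIA2, GRIA3 and GRIA4 genes and the share of GRIN1-27828 in the FPKM of both GRIN1 genes (y axes in percent, x axes the 6 groups). Mean GRIA2 shares are lower and mean GRIA4 shares higher in the traced (D, magenta) than in the untraced (G, green) groups, single libraries overlap, and the GRIN1-27828 share reaches 95.7% in D8W.

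Among the NMDA receptor genes, the pair of GRIN1 genes, whose product is required in every NMDA receptor, differed in opposite directions between traced and untraced cells in the comparison over the 3 states given below, and in no single state past the threshold. GRIN1-25728 (ENSDARG00000025728) stood at 43.5, 78.2 and 85.2 FPKM (lowest, median, highest) in Gcon and at 46.9, 54.5, 47.5, 51.4 and 41.5 FPKM in Dcon. After 3 weeks it stood at 61.8, 49.9, 95.2, 55.5 and 73.8 FPKM in G3W and at 18.6, 25.7, 5.28, 19.3 and 15.3 FPKM in D3W. Its 8-week values were 79.9, 45.7, 66.5, 28.8 and 30.8 FPKM in G8W and 6.19, 22.4 and 44.0 FPKM (lowest, median, highest) in D8W. The groups overlapped in uninjured fish and at 8 weeks and were apart at 3 weeks, where the log2 fold change was -1.43 (SE 0.419, limma adjusted p = 0.0865).

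GRIN1-27828 (ENSDARG00000027828) stood at 85.1, 127 and 143 FPKM (lowest, median, highest) in Gcon and at 173, 177, 213, 80.5 and 139 FPKM in Dcon. It stood at 79.1, 85.7, 110, 83.1 and 83.0 FPKM in G3W and at 179, 200, 53.6, 68.9 and 135 FPKM in D3W. At 8 weeks it stood at 79.4, 45.9, 98.4, 83.2 and 179 FPKM in G8W and at 76.3, 139 and 320 FPKM in D8W. All 3 state contrasts overlapped, with 3 of 5, 3 of 5 and 2 of 6 traced libraries above every untraced one. In the same order 1 of 5, 2 of 5 and 0 of 6 lay below every untraced one. The largest log2 fold change was 1.25 at 8 weeks (SE 0.373, limma adjusted p = 0.294). Its share of the FPKM of both GRIN1 genes was 63.7% ± 3.56, 57.1% ± 4.35 and 63.8% ± 15.6 in Gcon, G3W and G8W, and 75.0% ± 8.07, 87.6% ± 5.39 and 86.6% ± 6.97 in Dcon, D3W and D8W (SD, n = 5 or 6). At 3 weeks the shares of traced libraries, from 78.1% to 91.0%, lay above those of untraced libraries, from 52.9% to 63.2%, in all 5 libraries of each group.

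Of the GRIN2 genes, which set the kinetics of NMDA receptors, GRIN2B-30376 (ENSDARG00000030376) was low, with a median under 0.3 FPKM in each traced group. It stood at 1.14, 2.23 and 6.01 FPKM (lowest, median, highest) in Gcon and at 0, 0.972, 0.0153, 0.858 and 0.299 FPKM in Dcon. It stood at 2.79, 2.82, 3.10, 1.80 and 4.01 FPKM in G3W and at 0, 0.403, 0, 0.00627 and 1.70 FPKM in D3W. In the 8-week libraries it stood at 3.82, 3.08, 2.32, 0.506 and 2.43 FPKM in G8W and at 0, 0.0157 and 2.0 FPKM in D8W. In FPKM as deposited, traced and untraced libraries did not overlap in uninjured fish or at 3 weeks. At 8 weeks 4 of 6 traced libraries lay below all untraced ones. After scaling between libraries the 3-week groups overlapped, with D3W replicate 5 at 1.70 and G3W replicate 4 at 1.19 on the log2 scale. The log2 fold changes of -1.08 (SE 0.448), -1.14 (SE 0.467) and -0.90 were not past the threshold in any state (limma adjusted p of 0.366 and 0.265 for the uninjured and the 3-week state).

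The other GRIN2 genes showed no difference that passed. GRIN2C-78149 (ENSDARG00000078149) was the most abundant of them, with group means from 4.1 to 8.65 FPKM, and GRIN2A (ENSDARG00000034493) had group means from 2.56 to 7.39 FPKM. The gene grin2db (ENSDARG00000070620) averaged 5.57 ± 3.76 FPKM (SD, n = 6) in D8W and 1.36 ± 1.59 FPKM (SD, n = 5) in Dcon, with a log2 fold change of 1.68 (SE 0.634, limma adjusted p = 0.320). The gene grin2ab (ENSDARG00000070543) averaged 0.154 FPKM in D3W, with 3 of 5 libraries listed at 0, and 1.84 FPKM in G3W. The GRIN3 genes, whose subunits lower calcium entry, stayed at group means under 5 FPKM, and GRIN3B was highest in D3W replicate 5 at 17.8 FPKM. The ratio of GRIN1 to GRIN2 FPKM averaged 7.78, 7.98 and 7.15 in Gcon, G3W and G8W and 17.6, 18.5 and 10.9 in Dcon, D3W and D8W, with overlapping ranges of 3.24 to 11.1 in Gcon and 5.69 to 44.4 in Dcon. Without Dcon replicate 4, the highest, the Dcon mean was 10.9.

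Of the metabotropic receptor genes, GRM3 passed as lower in traced cells in uninjured fish. With the GRM2 genes it forms group II, whose receptors couple to Gi. GRM3 (ENSDARG00000031712) stood at 1.60, 3.78 and 11.2 FPKM (lowest, median, highest) in Gcon and was listed at 0 in all 5 Dcon libraries. It stood at 0.642, 0.436, 0.630, 0.0961 and 1.29 FPKM in G3W and was listed at 0 in all 5 D3W libraries. At 8 weeks it stood at 0, 1.77, 0.142, 0.981 and 1.96 FPKM in G8W, and 4 of 6 D8W libraries were listed at 0 with the highest at 0.0739 FPKM. Across all groups, no traced library reached 0.1 FPKM and 9 of 16 untraced libraries reached 1 FPKM. GRM3 therefore passed the level filter through untraced libraries alone, and being among the genes tested was tied to a high level in them. Set against the floor of 3 counts per library, which averaged 0.0443 scaled FPKM for this gene in Dcon and 0.0621 in D3W, the scaled mean was at least 81.3-fold higher in Gcon and at least 6.91-fold higher in G3W. On the log2(FPKM + 1) scale Dcon was lower than Gcon by a log2 fold change of -1.99 (SE 0.352, limma adjusted p = 0.00520, and 0.00487 with no level filter), and the difference did not pass at 3 weeks (-0.49) or 8 weeks (-0.71). The untraced libraries were themselves lower after injury, by -1.50 at 3 weeks (SE 0.352, adjusted p = 0.0895) and -1.24 at 8 weeks (SE 0.352, adjusted p = 0.353), neither past the threshold in limma's test. Without Gcon replicate 4 the 3-week value was -1.69 (adjusted p = 0.0473).

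GRM2-7195 (ENSDARG00000007195) stood at 1.25, 6.17 and 19.2 FPKM (lowest, median, highest) in Gcon and at 0, 1.54, 0, 0.093 and 5.01 FPKM in Dcon. It stood at 1.63, 1.35, 3.91, 2.72 and 7.74 FPKM in G3W and at 1.57, 0.197, 0, 0 and 0 FPKM in D3W. At 8 weeks it stood at 0, 2.40, 7.63, 0.417 and 2.43 FPKM in G8W, and in D8W at 5.44 FPKM in replicate 5 and no more than 0.0615 FPKM in the other 5 libraries. The groups overlapped in each state, through Dcon replicates 2 and 5, D3W replicate 1 and, at 8 weeks, D8W replicate 5 and a G8W library listed at 0. GRM2-4150 (ENSDARG00000004150) had group means from 0.205 to 1.85 FPKM and was listed at 0 in 11 of 16 traced and 4 of 16 untraced libraries. It reached 1 FPKM in 3 traced and 8 untraced libraries, so it too met the level filter only with the untraced ones. As a share of metabotropic FPKM, group II genes supplied 26.5% ± 12.3, 17.1% ± 8.54 and 17.7% ± 11.5 in Gcon, G3W and G8W and 4.48% ± 6.55, 5.65% ± 9.92 and 6.27% ± 8.05 in Dcon, D3W and D8W (SD, n = 5 or 6).

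Of the group I genes, whose receptors couple to Gq, GRM5-102067 (ENSDARG00000102067) averaged 4.86 and 4.46 FPKM in Gcon and Dcon and between 1.21 and 2.88 FPKM in the 4 injured groups. Group III genes, the mostly presynaptic receptors GRM4, GRM7 and GRM8 and the GRM6 genes known from retinal bipolar cells, supplied the largest share of metabotropic FPKM in every group, from 46.8% in G8W to 77.8% in D3W. The D3W mean includes replicate 5, where the share was 100% of a metabotropic sum of only 0.372 FPKM. GRM4 (ENSDARG00000040156) averaged 9.11, 8.98 and 5.93 FPKM in the traced groups and 6.39, 2.58 and 1.88 FPKM in the untraced ones, with log2 fold changes of 0.34, 1.46 and 1.26 that did not pass. GRM6-17742 (ENSDARG00000017742) was listed at 0 in 14 of 16 traced and 4 of 16 untraced libraries. It reached 1 FPKM in 2 traced and 7 untraced libraries, so it met the level filter only with the untraced ones. GRM8-76508 and GRM8-77654 ranged over group means of 2.97 to 6.03 FPKM and 0.933 to 5.82 FPKM and passed in no comparison.

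**Figure D3:**
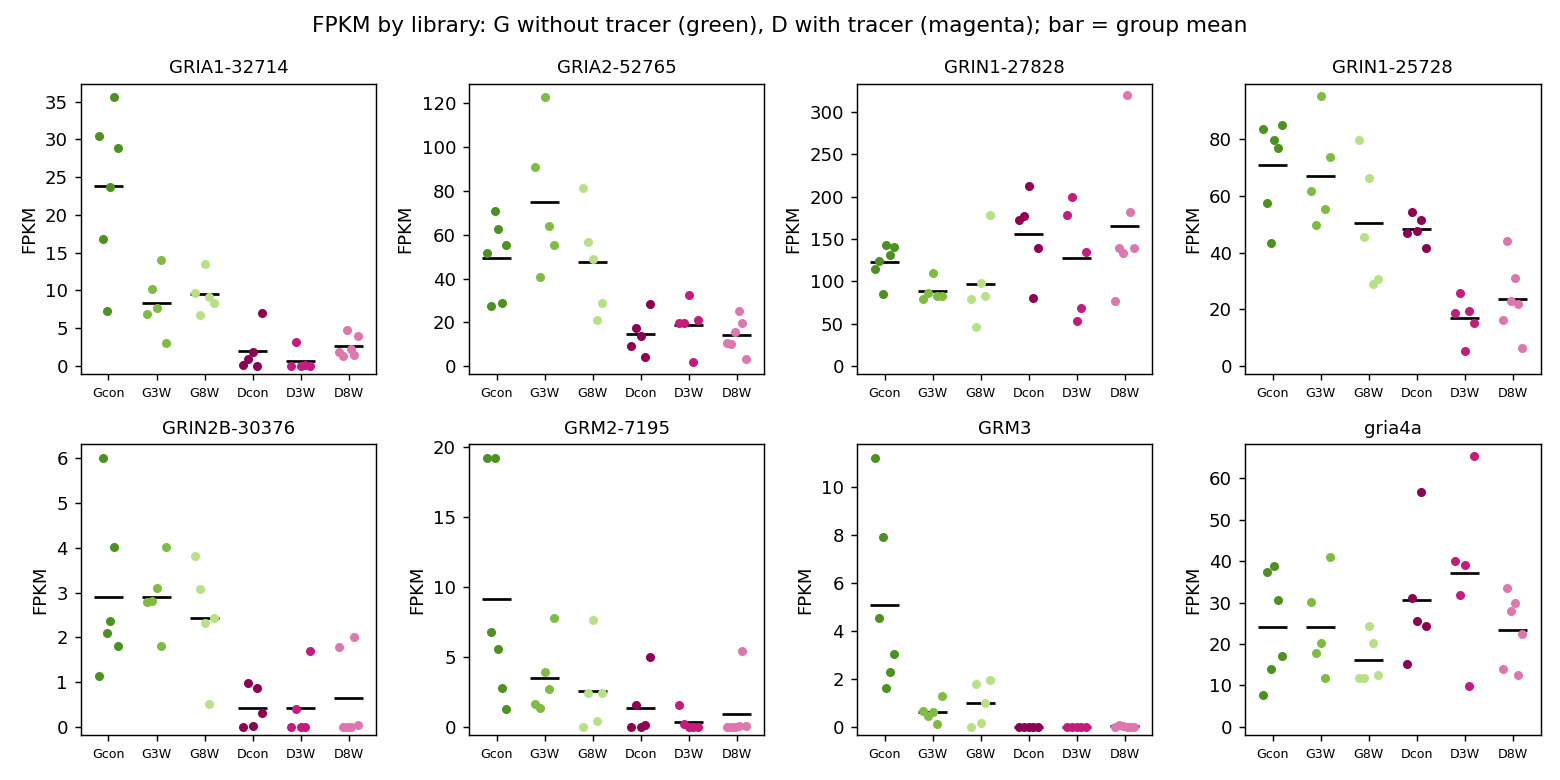
Points are the FPKM (y axes, linear) of 8 glutamate receptor genes in single libraries by group (x axes), and bars are group means. GRIA1-32714, GRIA2-52765, GRIN1-25728, GRIN2B-30376, GRM2-7195 and GRM3 are lower in most traced (D, magenta) libraries, GRIN1-27828 is higher in part of them, and gria4a overlaps throughout.

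In the test within each state, 2 of 40 members passed between Dcon and Gcon, both lower in traced cells, against 0.288% of all genes tested (0.204% lower). With only those 2 groups in the fit neither passed (GRIA1-32714 limma adjusted p = 0.0815, GRM3 0.167). At 3 weeks 1 of 40 passed, also lower, against 1.29% of all genes (1.09% lower), and at 8 weeks 0 of 40 passed, against 0.0665% of all genes. At an unadjusted p under 0.05 limma counted 7, 9 and 3 of 40 members in the 3 states, where all genes gave 10.6%, 13.4% and 6.98%. The median log2 fold change of the 40 members was -0.26, -0.49 and -0.08 in the 3 states, and that of all genes tested -0.15, -0.26 and -0.05. The sign was negative in all 3 states for 19 of 40 members and positive in all 3 for 5, namely GRIA3-32737, gria4a, GRIN1-27828, GRIN3B and GRM4, where 26.4% and 11.8% of all genes did so. No member passed for a difference of the traced to untraced contrast between injured and uninjured fish (0 of 40 at 3 weeks and 0 of 40 at 8 weeks, against 0.00443% and 0% of all genes), with 4 and 2 members at an unadjusted p under 0.05 in limma's test, where all genes gave 5.62% and 4.55%.

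A comparison of traced with untraced cells averaged over the 3 states, which was added after the values above had been seen, gave 7 of 40 members past the threshold, 1 higher and 6 lower, against 4.57% of all genes tested (0.998% higher and 3.57% lower). The AMPA receptor genes GRIA1-32714, at a log2 fold change of -2.11 (SE 0.318, limma adjusted p = 4.5e-05), and GRIA2-52765, at -1.47 (SE 0.330, adjusted p = 0.00567), were lower in traced cells. Of the NMDA receptor genes, GRIN1-27828 was higher (0.94, SE 0.219, limma adjusted p = 0.00787) while GRIN2B-30376 (-1.04, SE 0.262, adjusted p = 0.0150) was lower, as was GRIN1-25728 at -0.77 with an adjusted p of 0.0499 (SE 0.235). The group II receptor genes GRM3, at -1.06 (SE 0.207, limma adjusted p = 0.00134), and GRM2-7195, at -1.26 (SE 0.367, adjusted p = 0.0375), were lower. Of the 7, GRM3, GRM2-7195 and GRIN2B-30376 reached 1 FPKM in 0, 4 and 3 traced and in 9, 14 and 15 untraced libraries, so that they met the filter of 5 libraries only with the untraced ones and the count of 7 is partly set by it. With no filter on low values GRM3 (limma adjusted p = 0.0014) and GRIN2B-30376 (0.0159) passed, while GRM2-7195 (0.0662) and GRIN1-25728 (0.0543) did not. Counted over all states in FPKM as deposited, 12 of 16 traced libraries lay below every untraced library for GRIA1-32714 and 13 of 16 for GRIA2-52765. For GRIN2B-30376 it was 11 of 16 and for GRIN1-25728 9 of 16. Such counts depend on the scaling between libraries, and those after scaling are not given here. The median of the 40 members was -0.33 and that of all genes -0.15, and 14 of 40 members had an unadjusted p under 0.05, where all genes gave 18.5%.

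Not all of these calls were equally stable. The GRIA1-32714 and GRIA2-52765 calls held in all 9 alternative settings and without any of the 32 libraries, and those of GRM3, GRIN1-27828 and GRIN2B-30376 held without any library. Quantile normalization ended the calls of GRIN2B-30376 (adjusted p = 0.231) and GRM2-7195 (0.222) and left GRM3 at 0.0502 in limma's test. With the number of detected genes per library as a covariate GRIN1-27828 was at 0.88 (limma adjusted p = 0.0926) and GRIN2B-30376 at -0.98 (0.12). GRM2-7195 lost its call without any of 17 of the 32 libraries (adjusted p up to 0.073). GRIN1-25728 lost it with the replicate block (0.0712) and in 4 other settings (up to 0.203). It also lost it without any of 24 libraries (up to 0.0847) and kept it without Gcon replicate 3, D3W replicates 2, 4 or 5, G8W replicates 4 or 5, or D8W replicates 2 or 4. With the covariate for detected genes 3 members passed, GRIA1-32714 (log2 fold change -1.90, limma adjusted p = 0.00564), GRIA2-52765 (-1.72, adjusted p = 0.0175) and GRM3 (-1.20, adjusted p = 0.00719). With FPKM as deposited the median of all genes was -0.40 in place of -0.15 and 9 members passed, all lower, and GRIN1-27828 was then at 0.47 (limma adjusted p = 0.164). The summed FPKM of the V2a markers averaged 327 in Dcon and 334 in Gcon, 131 in D3W and 417 in G3W, and 184 in D8W and 344 in G8W, and its part in these differences was not tested.

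**Figure D4:**
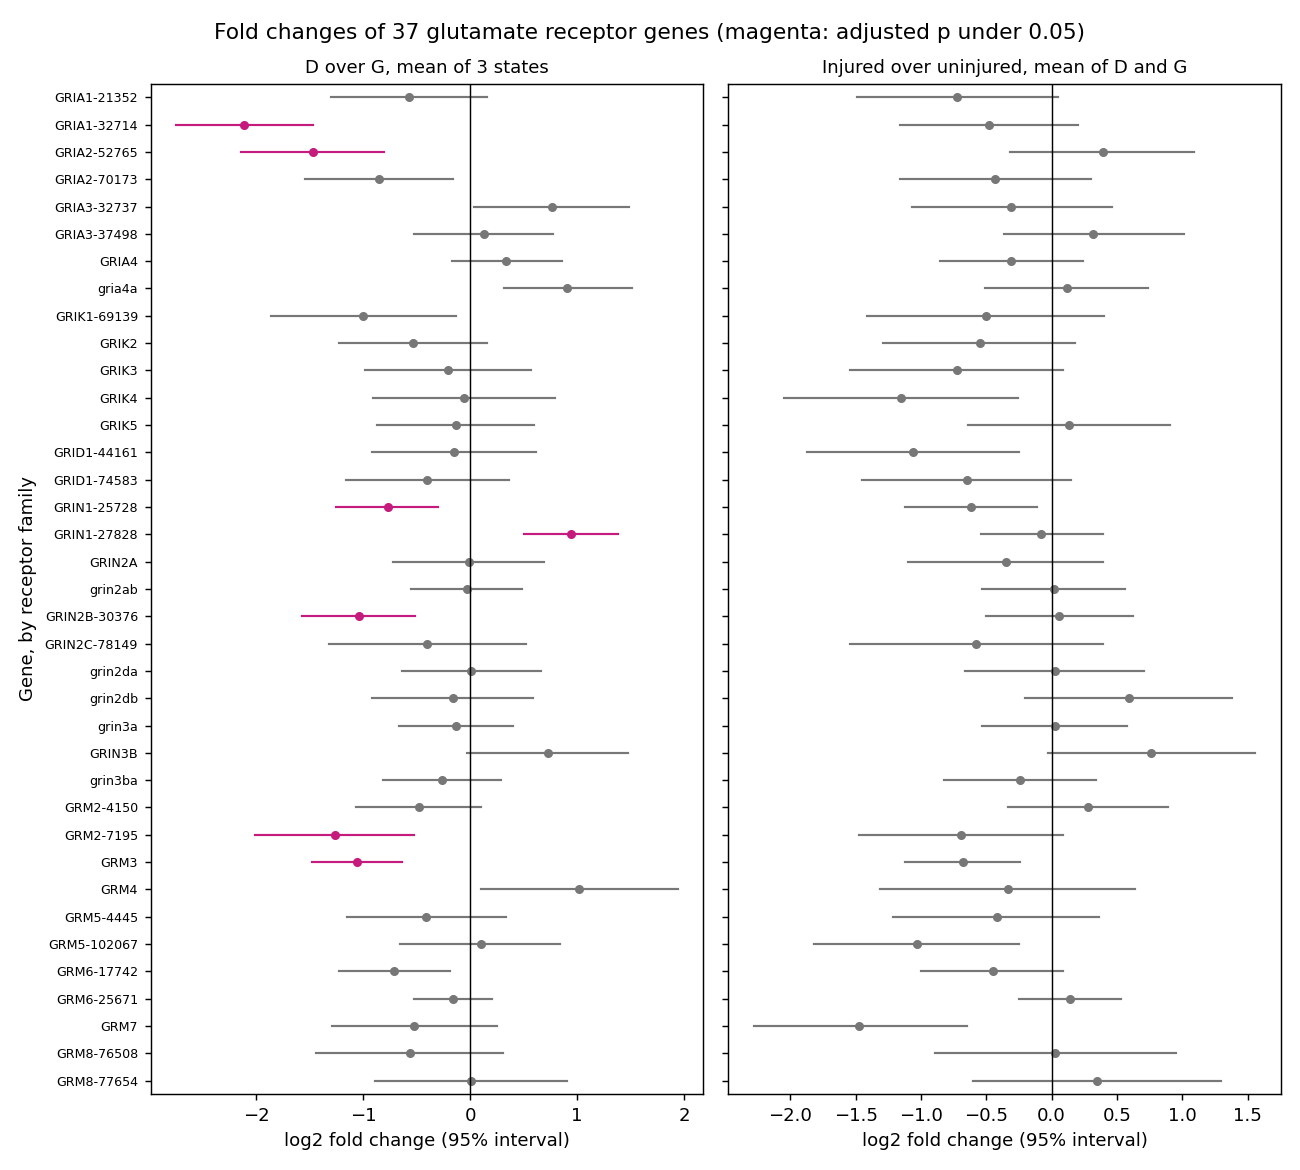
Points are limma log2 fold changes of 37 glutamate receptor genes (y axis, by family) with 95% intervals (x axes), for traced over untraced cells averaged over 3 states (left) and injured over uninjured averaged over traced and untraced cells (right). On the left 7 genes pass, in magenta, of which GRIN1-27828 is the 1 to the right of 0, and on the right no gene passes.

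After injury no member passed in any of the 6 comparisons between times within traced or untraced cells. In traced cells 0 of 40 passed at 3 weeks against uninjured (0.789% of all genes), 0 of 40 at 8 weeks against uninjured (0.0621%) and 0 of 40 at 8 against 3 weeks (0.0399%), with 6, 4 and 5 members at an unadjusted p under 0.05 in limma's test, where all genes gave 12.5%, 10.8% and 9.18%. In untraced cells 0 of 40 passed at 3 weeks (0.0931%), 0 of 40 at 8 weeks (0.0310%) and 0 of 40 between them (0.00443%), with 3, 3 and 1 at an unadjusted p under 0.05 in limma's test, where all genes gave 7.01%, 6.28% and 3.17%. These comparisons share their uninjured and 3-week libraries. The members' median was -0.37 for D3W against Dcon, where all genes gave 0.01, and -0.33 and -0.41 for G3W and G8W against Gcon, where all genes gave 0.14 and 0.08. The difference for D8W against Dcon was -0.02 for members and 0.19 for all genes. Of the pan-neuronal marker list, 15 genes were tested for D3W against Dcon, with a median of -0.57, 12 of them below 0 and 3 above. How far the receptor medians follow those of such neuronal genes was not tested. In the untraced cells 27 of 40 members at 3 weeks and 29 of 40 at 8 weeks had a fold change below 0, where 40.5% and 44.9% of all genes did.

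Averaged over traced and untraced cells, a comparison also added after the values had been seen, 0 of 40 members passed between injured and uninjured fish, against 1.57% of all genes. The 7 members with an unadjusted p under 0.05 in limma's test all had fold changes below 0, where all genes gave 14.6% in either direction and 5.06% lower. GRM7 (ENSDARG00000100267), a presynaptic metabotropic receptor gene, was closest to the threshold. It stood at 3.09, 6.21 and 13.5 FPKM (lowest, median, highest) in Gcon and at 3.32, 12.5, 6.84, 0 and 18.5 FPKM in Dcon. At 3 weeks it stood at 7.38, 0.833, 1.52, 0.854 and 1.03 FPKM in G3W and at 0, 7.13, 0, 0 and 0 FPKM in D3W. Its 8-week values were 10.4, 2.40, 0.983, 3.29 and 0.493 FPKM in G8W and 0, 0.382 and 1.80 FPKM in D8W. Uninjured and injured libraries overlapped through Dcon replicate 4, G3W replicate 1, G8W replicates 1 and 4 and D3W replicate 2. Its log2 fold change was -1.47 (SE 0.401, limma adjusted p = 0.0502), and it passed without Dcon replicate 4 (adjusted p = 0.0115), D3W replicate 2 (0.0131), G8W replicate 1 (0.0255), G3W replicate 1 (0.0375) or D8W replicate 3 (0.0425). Without D3W replicate 2 it also passed for D3W against Dcon, at -2.44 (adjusted p = 0.0413).

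Both GRID1 genes, of the delta receptor family, had negative fold changes in all 4 comparisons of an injured with an uninjured group, without passing in any. GRID1-44161 (ENSDARG00000044161), the most abundant delta receptor gene, averaged 37.0 ± 18.2 FPKM (SD, n = 6) in Gcon, 17.5 ± 3.98 in G3W and 13.4 ± 10.2 in G8W (SD, n = 5 each), and 25.6 ± 11.2 in Dcon, 12.2 ± 9.27 in D3W (SD, n = 5 each) and 12.5 in D8W, where it ran from 2.41 to 30.4 FPKM (n = 6). GRID1-74583 (ENSDARG00000074583) averaged 8.65, 6.02 and 5.55 FPKM in Gcon, G3W and G8W and 6.26, 3.97 and 2.1 FPKM in Dcon, D3W and D8W, and its groups overlapped. Averaged over traced and untraced cells GRID1-44161 had a log2 fold change of -1.06 (SE 0.401, limma adjusted p = 0.195). That of GRID1-74583 was -0.65 (SE 0.393) at an adjusted p of 0.45 in the same limma test.

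No kainate receptor gene passed in any comparison. Their FPKM summed to 50.7 ± 11.2 FPKM (SD, n = 6) in Gcon and 36.2 ± 10.2 FPKM (SD, n = 5) in Dcon and to 18.5 ± 3.16 FPKM (SD, n = 5) in D3W, the group with the smallest SD. GRIK4 (ENSDARG00000026753), a high-affinity subunit that needs a partner of the GRIK1 to GRIK3 type, stood at 13.1, 15.1, 20.5, 16.6 and 12.1 FPKM in Dcon, at 9.31, 11.4, 0, 7.80 and 0 FPKM in D3W and at 0, 3.21 and 15.6 FPKM (lowest, median, highest) in D8W. All 5 D3W libraries lay below all 5 Dcon libraries, with a log2 fold change of -1.82 (SE 0.748, limma adjusted p = 0.272), and both zeros were in the libraries with fewest genes. The low-affinity subunit gene GRIK3 (ENSDARG00000077715) averaged 9.87 FPKM over the 32 libraries and GRIK4 8.62 FPKM, an order that turned without Gcon replicate 1, where GRIK3 stood at 55.2 FPKM (8.4 and 8.82 FPKM without it). GRIK3 averaged 18.9 FPKM in Gcon, or 11.6 without that library, and between 5.30 and 11.1 FPKM in the other groups. GRIK2 (ENSDARG00000113771) ran from 7.68 to 12.7 FPKM in G3W and from 0.0682 to 3.62 FPKM in D3W, without overlap, with a log2 fold change of -1.77 (SE 0.610, limma adjusted p = 0.166). GRIK5 (ENSDARG00000101449), the other high-affinity subunit gene, had group means from 1.92 to 4.78 FPKM, while GRIK1-69139 (ENSDARG00000069139) had group means from 0.197 FPKM in D3W to 7.49 FPKM in Gcon.

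**Figure D5:**
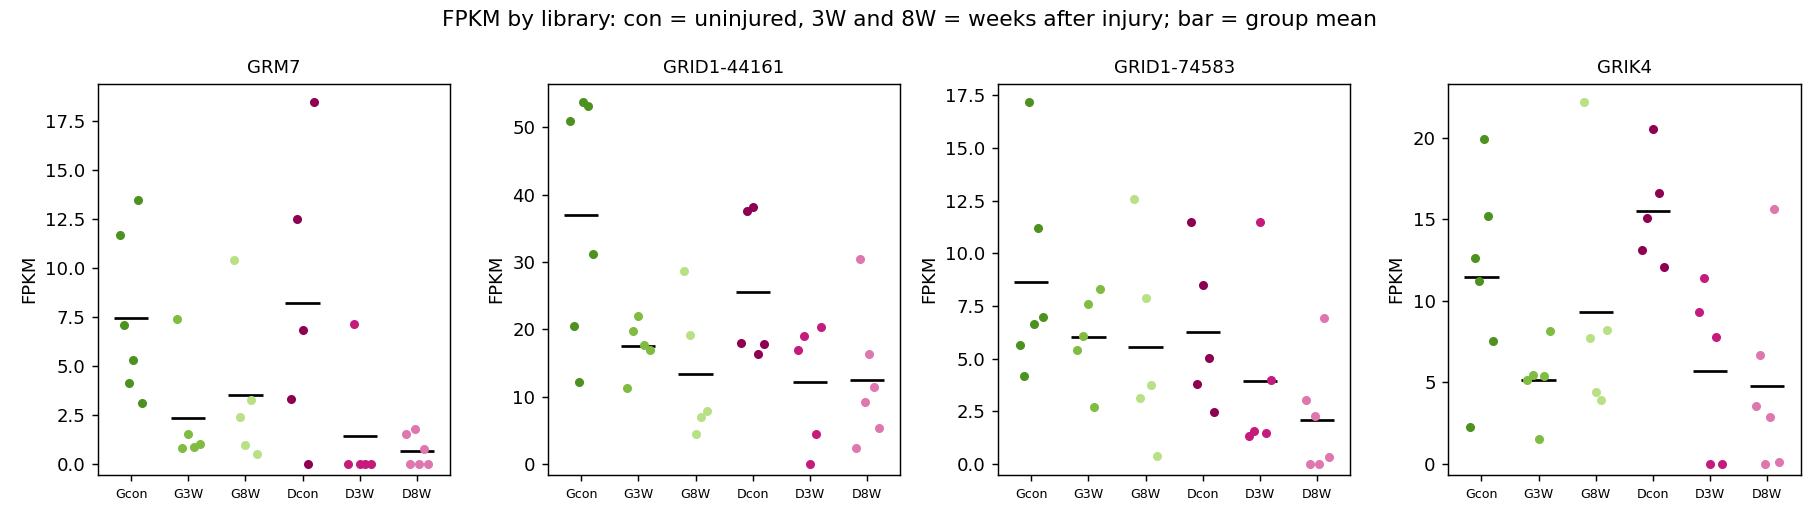
Points are the FPKM (y axes, linear) of GRM7, GRID1-44161, GRID1-74583 and GRIK4 in single libraries by group (x axes), and bars are group means. Most injured (3W, 8W) libraries lie under the uninjured group mean, D3W and Dcon are apart for GRIK4, and none of the 4 genes passed.

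Genes for proteins that accompany the receptors were read from lists of AMPA and kainate receptor auxiliary subunits (26 tested) and of postsynaptic scaffold, kinase and adhesion proteins (50 tested). In the comparison of traced with untraced cells over the 3 states, 1 of 26 auxiliary and 2 of 50 scaffold genes passed, all lower, against 4.57% of all genes (3.57% lower), and the list medians were -0.27 and -0.11, against -0.15. These shares are near that of all genes. CAMK2A (ENSDARG00000053617), the kinase subunit that phosphorylates GRIA1 in mammals, stood at 18.0, 51.8 and 101 FPKM (lowest, median, highest) in Gcon and between 0 and 6.06 FPKM in Dcon, groups that did not overlap. Its log2 fold change was -3.56 in uninjured fish (SE 0.768, limma adjusted p = 0.0302) and -2.09 over the 3 states (SE 0.450, adjusted p = 0.00365). The former call was lost without Gcon replicates 1, 2 or 5 or Dcon replicates 1, 4 or 5 (adjusted p up to 0.124). It failed too under 4 of 9 alternative settings (limma adjusted p up to 0.0743), while the call over the 3 states held under all 9. LRRTM2 (ENSDARG00000071374), a synaptic adhesion protein that holds AMPA receptors in mammals, averaged 33.5 ± 4.52 FPKM in G3W and 6.73 ± 3.65 FPKM in D3W (SD, n = 5 each), without overlap. Its log2 fold change was -1.67 at 3 weeks (SE 0.436, limma adjusted p = 0.0430), a call kept without D3W replicate 1 or 3 and lost without any of the other 8 libraries (adjusted p up to 0.119), and -0.91 over the 3 states (SE 0.245, adjusted p = 0.0226). Of 9 alternative settings 5 ended the 3-week call (adjusted p up to 0.247) and 2, a pseudocount of 0.1 and the covariate for detected genes, that over the 3 states (up to 0.122). The AMPA receptor auxiliary gene shisa9b (ENSDARG00000052642) was lower in traced cells over the 3 states by -1.46 (SE 0.433, limma adjusted p = 0.0412), a call lost without any of 17 of the 32 libraries (adjusted p up to 0.0760) and in 4 of 9 alternative settings, the replicate block among them (up to 0.296).

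The auxiliary genes gsg1l2b and shisa7b, the most abundant of their list with shisa9b, averaged 22.2 and 18.1 FPKM over the 32 libraries, and the kinase genes camk2g1 and camk2g2 averaged 74.6 and 79.1 FPKM. These 4 passed in no comparison. Between injured and uninjured fish 0 of 26 auxiliary genes and 2 of 50 scaffold genes passed, both lower, against 1.57% of all genes (0.479% lower). They were dlgap2b (ENSDARG00000092376), a scaffold gene, at -1.64 (SE 0.409, limma adjusted p = 0.0275), and the kinase gene camk2d2 (ENSDARG00000014273) at -1.17 (SE 0.308, adjusted p = 0.0396). The dlgap2b call was lost without Gcon replicate 5 or Dcon replicates 1 or 4 (adjusted p up to 0.0802) and that of camk2d2 without any of 16 of the 32 libraries (up to 0.0882) and in 3 of 9 alternative settings, the replicate block among them (up to 0.0768). The medians of the lists in this comparison were -0.70 and -0.35, and that of all genes 0.12. Among the markers 2 of 16 astroglial and 1 of 18 microglial genes passed as higher after injury and 1 of 9 inhibitory neuron genes as lower, against 1.1% higher and 0.479% lower of all genes. S100B of the astroglial list (log2 fold change 4.05, SE 0.661, limma adjusted p = 0.000737) and apoeb of the microglial list (2.74, SE 0.569, adjusted p = 0.00698) were higher after injury, and their part in the receptor values was not tested.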

How the data were processed

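RNA of sorted cells was prepared with the SMART-Seq v4 kit for low input, per the labels' protocols. The authors deposited 1 table of FPKM for 42370 genes in 32 libraries. The submitters' processing notes list danRer11, HTSeq 0.9.1 and HISAT2 2.0.5 without roles. Symbols came from a gene name table, and 29178 IDs matched. A genome or protein sequences were not used here.

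Each library was scaled by a median-ratio factor over 6387 genes that reached 1 FPKM in 28 or more libraries, then log2-transformed with a pseudocount of 1, which understates changes of low genes. Unless scaling is named, statements that groups overlapped or that libraries lay above or below others used FPKM as deposited. One limma model (3.58.1, R 4.3.3, trend and robust) with a mean per group tested 22552 genes, two-sided, with Benjamini-Hochberg adjustment over all of them and calls at an adjusted p under 0.05. The method was tested on simulated data. Some genes, 3 of the 40 members among them, stay in the counts, sums and medians and are not reported here one by one. Tables and figures used Python 3.11.15, pandas 2.3.3, numpy 2.4.6 and matplotlib 3.10.9.

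Library totals and counts were inferred from whole-number steps of the FPKM, for 42 of 43 members. Reads and read pairs were not told apart, and floors of 3 counts cover counting error only. HTSeq's strand setting is not given in the sources used here, so overlapping genes and near-identical copies sharing reads are uncertain.

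The members, the lists and the comparisons were chosen with earlier results of these data known. Named were members past the threshold in any planned comparison, the 4 most abundant per family, the 3 with the smallest p per comparison, and, of the companion lists, those that passed and the 3 most abundant; the others named were chosen after their values were seen. Same-numbered libraries were checked for shared deviations. The alternatives changed the pseudocount to 0.1, dropped the filter, used unscaled FPKM or quantile-normalized values, weighted libraries, fitted only the 2 groups in question, added a replicate block, or left out each library in turn. A covariate for genes detected, a fit without D3W replicates 3 and 5, and both averaged comparisons were added after seeing the data.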

Additional observations from a re-analysis of the deposited data

Results flagged for a closer look

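Within the 6 groups of 27 named members, 162 groups of libraries were examined, and in 13 of them the highest or lowest library on the log2 scale stood farther from the rest than Dixon's 95% limit. Chance flags about 1 in 20 groups. The values below are FPKM.

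Libraries above the others of their group in AMPA, kainate and NMDA receptor genes were D3W replicate 2 for GRIA1-32714 (3.17, others up to 0.148), Gcon replicate 1 for GRIK3 (55.2, others up to 17.4), D3W replicate 5 for GRIN2B-30376 (1.70, others up to 0.403) and D8W replicate 6 for GRIN2C-78149 (17.4, others up to 2.64). Libraries below the others were D8W replicate 1 for GRIA4 (13.6, others from 20.6) and G3W replicate 1 for GRID1-44161 (11.3, others from 17.0).

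The other 7 were high values of metabotropic receptor genes, most of them in traced groups in which the other libraries were at or near 0. GRM2-7195 stood at 1.57 in D3W replicate 1 (others up to 0.197) and at 5.44 in D8W replicate 5 (others up to 0.0615). GRM5-102067 stood at 6.90 in D8W replicate 4 (others up to 1.11). GRM6-17742 stood at 2.18 in Dcon replicate 4 and at 1.08 in D8W replicate 6, where the others of each group were listed at 0. GRM7 stood at 7.38 in G3W replicate 1 (others up to 1.52) and at 7.13 in D3W replicate 2, where the others were listed at 0.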

How the results depend on the processing

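No fold change past the threshold changed sign under any alternative or left-out library. Counts of members called stayed at 0 in all settings for D8W against Dcon, D8W against D3W, G8W against Gcon, G8W against G3W, D8W against G8W and both interactions. With FPKM as deposited the count was 1 for G3W against Gcon (GRM3, adjusted p = 0.0448), 4 for D3W against G3W (GRIA1-32714, GRIA2-52765, GRIK2 and GRIN1-25728) and 1 for injured against uninjured (GRM7). With array weights it was 1 for G3W against Gcon, 2 for D3W against G3W (GRIA1-32714 and GRIA2-52765) and 3 for injured against uninjured (GRM7, GRID1-44161 and GRM5-102067). With only the groups compared it was 0 for Dcon against Gcon (GRIA1-32714 adjusted p = 0.0815, GRM3 0.167) and 0 for D3W against G3W. Quantile normalization gave 0 for D3W against G3W, 4 in place of 7 for D against G over the 3 states and 1 for injured against uninjured. A covariate for genes detected per library gave 0 for D3W against G3W, 3 for D against G and 1 for injured against uninjured, and leaving out both libraries with fewest genes gave 0 for D3W against G3W. The cause of these changes was not tested. Without single libraries the counts ran from 0 to 1 for D3W against Dcon (1 without D3W replicate 2), G3W against Gcon (1 without Gcon replicate 4), D3W against G3W and injured against uninjured, stayed at 2 for Dcon against Gcon, and ran from 5 to 7 for D against G. The shift of all genes between D and G over the 3 states was -0.40 with FPKM as deposited and 0.03 with quantile normalization. With a pseudocount of 0.1 the members' median for D3W against G3W was -1.38, where all genes gave -0.77. With FPKM as deposited 2629 of the genes called between D and G were lower and 85 higher, against 805 and 225.

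Same-numbered libraries showed little shared deviation: over 45 pairs the correlation of their deviations ran from -0.131 to 0.141, and 2 pairs exceeded 0.1. Such weak correlations cannot decide whether same-numbered libraries came from the same fish, which the labels do not give. With the replicate block the count was 0 for D3W against G3W (GRIA1-32714 adjusted p = 0.0618), 6 for D against G (GRIN1-25728 lost, adjusted p = 0.0712) and 1 for injured against uninjured (GRM7 adjusted p = 0.0454), and 2 for Dcon against Gcon. Depth limits members whose values lie under 0.319 FPKM in the shallowest library for a gene of 1 kilobase, and for these a value of 0 is not absence.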
